A study of Mus musculus with 4 samples.

Results

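Chromatin modifiers and remodelers were examined in ribosome profiling libraries of mouse embryonic fibroblasts, connective tissue cells grown from mouse embryos. Members were all listed genes whose symbols begin with the family names Kdm, Kmt, Smarc, Chd, Hdac, Brd, Setd, Ezh, Suz12, Ino80, Arid, Ash1, Ash2, Kat, Ehmt, Dnmt or Tet, followed by a number where the family name calls for one. They numbered 55 of the 4878 genes in the deposited table. The rule left out 1 further gene that fits the pattern, and it is not reported here. The rule used gene names and no measured value, though it was chosen with earlier results of these data known. The fibroblasts, at passages 5 to 8, were transfected either with a negative control siRNA or with the eIF1A siRNA labelled X+18, and each group held 2 libraries. Ribosome profiling sequences the mRNA fragments that ribosomes protect from RNase I, called footprints. eIF1A is a translation initiation factor of the small ribosomal subunit, known for its roles in scanning along the leader and in choosing the start codon.

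Chromatin modifiers add or remove chemical groups on histones and DNA, and remodelers use ATP to slide or evict nucleosomes. Methyltransferases and acetyltransferases write marks on histone tails, demethylases and deacetylases erase them, and bromodomain proteins bind acetylated lysines. In fibroblasts these proteins set which genes are accessible to transcription, and most of them work in complexes of several subunits. The members are described here through the footprints on their coding sequences and on their 5' untranslated regions (5' UTRs, the leaders that a scanning ribosome crosses before the main start codon).

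Footprint levels are normalized read numbers, which are the reads of a gene and region divided by a factor for each library. They combine the amount of an mRNA with its translation, since RNA-seq of the cells was not used here. In such bulk samples, fewer cells that express a gene and less of its RNA per cell cannot be told apart. The labels do not say whether replicates came from separate cultures, so the p-values measure only how these libraries spread, and that spread may be technical. The listed genes held 366775 to 546123 coding reads in control libraries 1 and 2 and knockdown library 1, and 189658 in knockdown library 2. Leaders held 11.6% and 13.7% of all listed reads in the controls and 19.95% and 32.4% in the knockdown libraries. Of 12 fibroblast markers, Vim, S100a4 and Fn1 were among the listed genes, with summed levels of 3853 and 5504 normalized coding reads in the controls and 3454 and 2871 in the knockdown libraries. Of 4 pericyte and smooth muscle markers, Notch3 and Cspg4 were listed, and their sum was 337.5 and 548 in the controls, with 105.8 and 122.9 in the knockdown libraries. The epithelial list gave 1 of 6 markers (Dsp, 108.9 and 146.1 against 82.4 and 71.8) and the neuronal list 1 of 3 (Map2, 65.9 and 55.3 against 15.3 and 6.38). Endothelial, leukocyte, skeletal muscle and erythroid markers were not analysed here. The part of these marker levels and of depth in the results on chromatin genes was not tested. The siRNA target itself was not analysed here, so the knockdown was not checked in these libraries.

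Coding footprints of chromatin genes were lower in the knockdown libraries for many members and passed the test upwards for none. Of 55 members tested, 21 fell, 0 rose and 34 did not pass (limma on log2 values, adjusted over all 4619 genes tested, threshold 0.05). Among all genes tested, 18.7% fell and 10.6% rose. At an unadjusted p under 0.05, 30 members passed. The members' median log2 change was -0.73, beside -0.16 for all genes. The edgeR count test on whole reads also called 21 members lower and 0 higher, beside 905 and 612 of all 4619 genes. DESeq2, with its own size factors in place of the deposited scaling, called 13 members lower and 0 higher, beside 498 and 490 of all genes. Its median log2 change was -0.58 for the members and 0.02 for all genes, so its counts differ in scaling as well as in test. Both knockdown libraries lay below both controls in 35 members and above both in 2, beside 40.1% and 26% of all genes tested. The members together held 1.61% (95% Wilson interval 1.57 to 1.64) and 2.00% (1.96 to 2.04) of the listed coding reads in control replicates 1 and 2. They held 1.23% (1.2 to 1.27) and 1.49% (1.43 to 1.54) in knockdown replicates 1 and 2, and these intervals cover counting error only.

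The count of calls depended on the control libraries. Without control replicate 1, limma called 6 members, and without control replicate 2 it called 0, with 27 and 13 members at an unadjusted p under 0.05. Over all genes it then called 294 and 11. All 21 log2 changes kept their sign, at 99.8% to 130% of their size without control replicate 1 and 69.7% to 100% when control replicate 2 was left out. The sign could not change there, since in each of the 21 both knockdown libraries lay below both controls. With knockdown replicate 1 or 2 left out, limma called 23 and 26 members, and calls over all genes rose from 29.3% to 34.6% and 37.4%. The 6 members still called without control replicate 1 were Kmt2d, Kdm4b, Kdm5b, Kdm6a, Kat6b and Hdac5, and they were called in 15 of 16 alternatives. With TMM factors, which move the median of all genes to 0.01, the members' median was -0.56. That fit called 20 members lower and 0 higher, beside 771 and 784 of all 4611 genes.

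**Figure D1:**
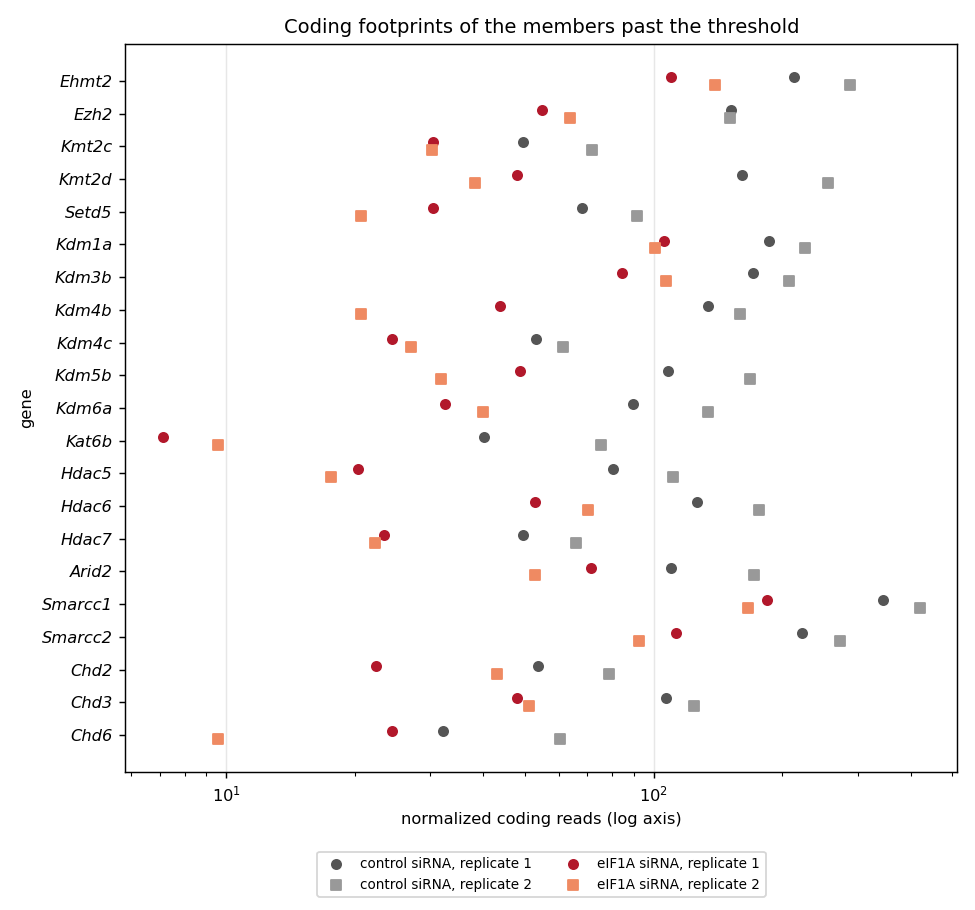
Normalized coding reads (log axis) of the 21 chromatin genes past the limma threshold, 1 point per library, for control siRNA (dark and light grey) and eIF1A siRNA (red and orange), ordered by role. In each gene both knockdown libraries lie below both controls, as in Kmt2d with 47.8 and 38.3 against 161 and 256.

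Among histone methyltransferases and Polycomb subunits, 5 of 15 fell and 0 rose, with a group median log2 change of -0.76. Kmt2d, which methylates lysine 4 of histone H3 at enhancers (chromosome 15, 98831669 to 98874077, here and below from RefSeq, GRCm38.p6), had 161 and 256 normalized coding reads in the controls and 47.8 and 38.3 in the knockdown libraries. The groups did not overlap, and the log2 change was -2.22 ± 0.32 (SE, limma adjusted p = 0.000201). Its relative Kmt2c, a second enhancer methyltransferase, had 49.4 and 71.7 against 30.5 and 30.3 (log2 -0.95, limma adjusted p = 0.0441). Kmt2b, which methylates the same lysine at promoters, had 43.0 and 71.7 against 45.8 and 67.0, so its groups overlapped (limma adjusted p = 0.995). The Kmt2c call was lost in 6 of 16 alternatives, TMM scaling and DESeq2 among them.

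Ezh2, the catalytic subunit of Polycomb repressive complex 2, which methylates lysine 27 of histone H3 (chromosome 6, 47530274 to 47595270), was at 152 and 151 in the controls. It was at 54.9 and 63.8 in the knockdown libraries. The replicates of each group lay close together, and the log2 change was -1.34 ± 0.29 (SE, limma adjusted p = 0.00334). Ezh1, its paralogue, had 25.1 and 23.3 against 14.2 and 4.79, where the last value stands for 3 reads. Both knockdown libraries were below both controls for Ezh1, and the log2 change, -1.42 ± 0.53 (SE), did not pass (limma adjusted p = 0.0520). It passed in 7 of 15 alternatives, TMM scaling among them, and was -2.12 without knockdown replicate 1 and -0.73 without knockdown replicate 2. Suz12, another subunit of that complex, was not analysed here.

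Setd5, a SET domain protein, had 68.1 and 91.6 normalized coding reads in the controls and 30.5 and 20.7 in the knockdown libraries (log2 -1.61, limma adjusted p = 0.00286). Ehmt2, also known as G9a, which methylates lysine 9 of histone H3, had 213 and 288 against 110 and 139 (log2 -1.0, limma adjusted p = 0.0192). Neither gene's groups overlapped, and the Ehmt2 call was lost in 6 of 16 alternatives. The 10 members of this group that did not pass had log2 changes from -1.42 in Ezh1 to 0.10 in Ash2l, a shared subunit of lysine 4 methyltransferase complexes. Ash1l, which methylates lysine 36 of histone H3, had 143 and 235 against 108 and 121 (limma adjusted p = 0.110). Setd3, which was grouped here by its symbol but is known to methylate actin, was at 45.9 and 48.4 against 22.4 and 31.9 (limma adjusted p = 0.0956).

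Histone demethylases fell in 6 of 10 cases and rose in 0, with a group median of -0.98. Kdm4b, which removes methyl groups from lysine 9 of histone H3 (chromosome 17, 56325970 to 56403774), had 134 and 159 in the controls and 43.7 and 20.7 in the knockdown libraries. All 4 libraries were thus separated by group, and the log2 change was -2.24 ± 0.36 (SE; limma adjusted p = 0.000424). Kdm4c, of the same family, fell from 53.0 and 61.4 to 24.4 and 27.1 (log2 -1.12, limma adjusted p = 0.0195). Kdm4a, the third listed family member, had 115 and 128 in the controls and 129 and 137 in the knockdown libraries. That is above both controls, by 0.13 ± 0.28 (SE) on the log2 scale, which did not pass (limma adjusted p = 0.764).

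Kdm5b, which demethylates lysine 4 of histone H3 (chromosome 1, 134560178 to 134632878), fell from 108 and 168 to 48.8 and 31.9 normalized coding reads (log2 -1.74, limma adjusted p = 0.00154). Kdm6a, also known as UTX, demethylates lysine 27 of histone H3 and is X-linked (chromosome X, 18160862 to 18279936). It had 89.6 and 134 in the controls and 32.5 and 39.9 in the knockdown libraries (log2 -1.58, limma adjusted p = 0.00233). Its paralogue Kdm6b had 26.5 and 36.3 against 13.2 and 17.6, which did not overlap but did not pass either (log2 -0.98, limma adjusted p = 0.0771). Kdm1a, the flavin-dependent demethylase LSD1, fell from 186 and 226 to 106 and 101 (log2 -0.98, limma adjusted p = 0.0173). Kdm3b fell from 171 and 207 to 84.4 and 107 (log2 -0.98, limma adjusted p = 0.0200). The Kdm1a and Kdm3b calls were lost in 5 and 6 of 16 alternatives. Kdm2b, a CpG island binding demethylase, and Kdm1b did not pass, with log2 changes of -0.83 and -0.59.

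**Figure D2:**
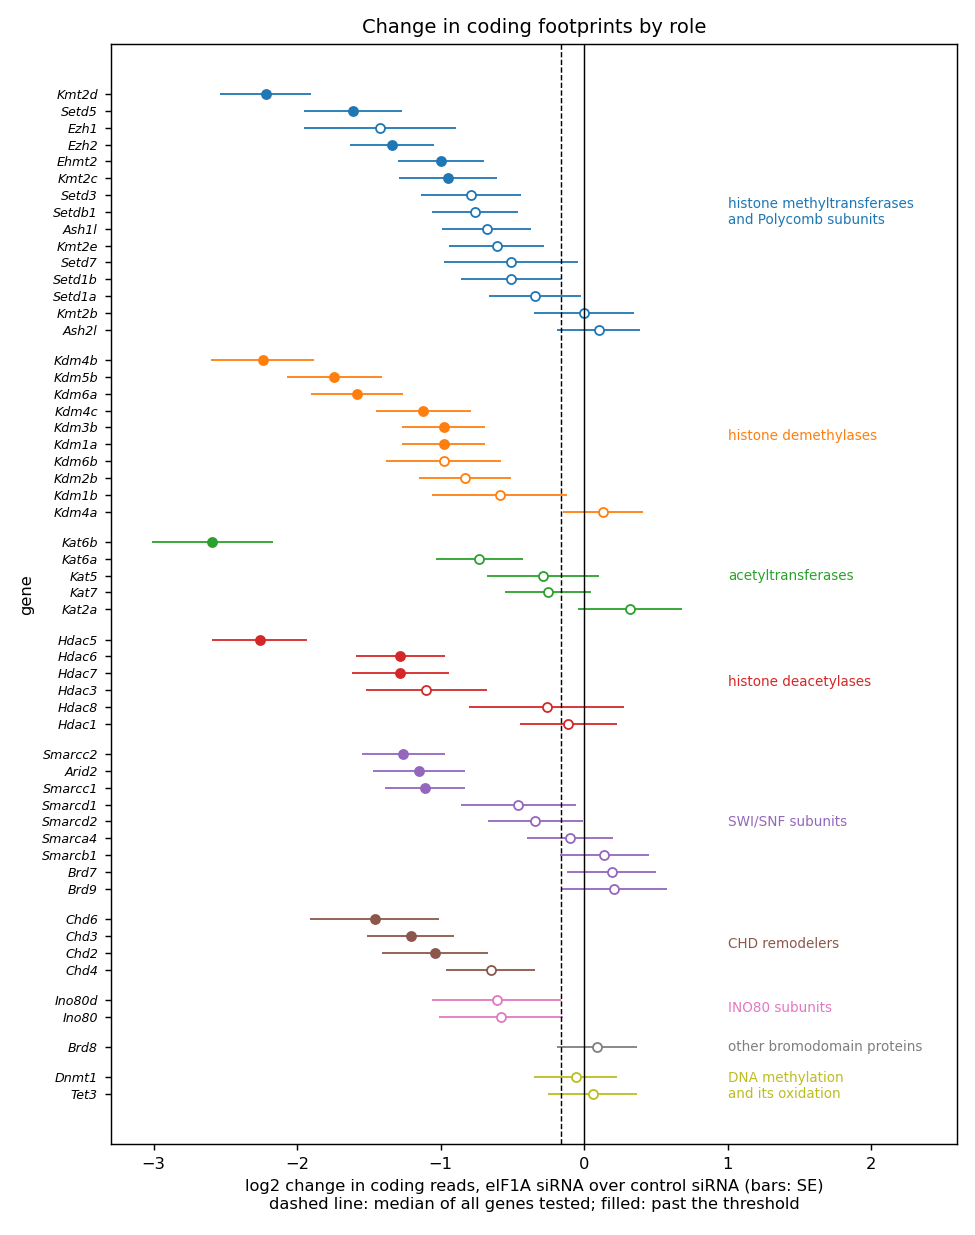
Log2 change (knockdown over control) of coding reads for 54 chromatin genes, grouped by role, with bars for the SE from limma, filled points for members past the threshold, and a dashed line at the median of all genes tested (-0.16). Kat6b lies lowest at -2.59 and Kat2a highest at 0.32.

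Acetyltransferases gave 1 fall and 0 rises among 5, with a group median of -0.29. Kat6b, a MYST family acetyltransferase of histone H3 (chromosome 14, 21499216 to 21672478), had 40.1 and 75.2 normalized coding reads in the controls. It had 7.12 and 9.58 in the knockdown libraries, which are 7 and 6 reads. This was the lowest log2 change of any member, at -2.59 ± 0.42 (SE, limma adjusted p = 0.0005). Its paralogue Kat6a had 128 and 168 against 82.4 and 94.2 and did not pass (log2 -0.73, limma adjusted p = 0.0740). Kat7, which acetylates histones H3 and H4 and is known for its part in replication origin licensing, had 105 and 118 against 108 and 81.4, so its groups overlapped. Kat5, also known as Tip60, and Kat2a, also known as Gcn5, overlapped as well, with log2 changes of -0.29 and 0.32.

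Histone deacetylases fell in 3 of 6 cases and rose in 0, with a group median of -1.19. Hdac5, a class IIa deacetylase that shuttles between nucleus and cytoplasm (chromosome 11, 102195747 to 102230172), had 80.3 and 111 in the controls and 20.3 and 17.6 in the knockdown libraries. The groups were well apart, by -2.26 ± 0.33 on the log2 scale (SE, limma adjusted p = 0.000257). Hdac7, of the same class, fell from 49.4 and 65.7 to 23.4 and 22.3 (log2 -1.28, limma adjusted p = 0.0111). Hdac6, a mainly cytoplasmic enzyme known for deacetylating tubulin, fell from 126 and 176 to 52.9 and 70.2 (log2 -1.28, limma adjusted p = 0.00665). None of the 3 class I members passed. Hdac1 had 263 and 181 against 282 and 145, where 1 knockdown library was above and 1 below both controls (log2 -0.11). Hdac3, the deacetylase of the NCoR and SMRT corepressors, had 66.6 and 51.9 against 44.7 and 16 (log2 -1.10, limma adjusted p = 0.0577). Hdac8 overlapped between the groups (log2 -0.26).

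Of 9 subunits of the SWI/SNF remodeling complexes, 3 fell and 0 rose, with a group median of -0.34. Smarcc1, a core scaffold subunit also called BAF155 (chromosome 9, 110132024 to 110240178), had 344 and 419 in the controls and 184 and 166 in the knockdown libraries. Smarcc2, its paralogue BAF170, had 222 and 273 against 113 and 92.6. Both scaffolds were separated by group, with log2 changes of -1.11 ± 0.28 and -1.26 ± 0.29 (SE, limma adjusted p = 0.0085 and 0.0048). Arid2, a subunit of the PBAF form of the complex, fell from 110 and 172 to 71.2 and 52.7 (log2 -1.15, limma adjusted p = 0.0142). Smarca4, the ATPase BRG1 (chromosome 9, 21616106 to 21704230), had 294 and 430 against 306 and 361, so its groups overlapped (log2 -0.10). The core subunit Smarcb1 had 61.6 and 62.2 against 81.4 and 57.5 (log2 0.14). Brd7, a PBAF subunit, had 47.3 and 51.0 against 60.0 and 52.7, above both controls in both knockdown libraries but not past the test. Together with Brd9, Smarcd1 and Smarcd2, it had log2 changes from -0.46 to 0.21, and none of the 4 passed.

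CHD remodelers fell in 3 of 4 cases and rose in 0, with a group median of -1.13. Chd3, an ATPase of the NuRD complex that couples remodeling to deacetylation, fell from 107 and 124 to 47.8 and 51.1 normalized coding reads (log2 -1.21, limma adjusted p = 0.00731). Chd4, the other NuRD ATPase (chromosome 6, 125095980 to 125130591), had 654 and 1027 in the controls and 466 and 583 in the knockdown libraries. Its groups did not overlap, and the log2 change, -0.65 ± 0.31 (SE), did not pass (limma adjusted p = 0.125). Chd6 fell from 32.2 and 60.5 to 24.4 and 9.58 (log2 -1.46, limma adjusted p = 0.0244), and Chd2 from 53.7 and 78.7 to 22.4 and 43.1 (log2 -1.04, limma adjusted p = 0.0448). These last 2 calls were lost in 5 and 8 of 16 alternatives. Over the alternatives, the log2 change of Chd6 ranged from -2.10 to -0.83 and that of Chd2 from -1.5 to -0.58.

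No member of the remaining role groups passed on coding reads. Dnmt1, the maintenance DNA methyltransferase, had 531 and 717 against 557 and 626, and Tet3, which oxidizes 5-methylcytosine, had 48.7 and 53.6 against 50.9 and 55.9. The groups overlapped in both genes, with log2 changes of -0.06 and 0.06. Brd8, a bromodomain subunit of the NuA4 acetyltransferase complex, had 122 and 118 against 133 and 121 (log2 0.09). Ino80, the ATPase of the INO80 complex, overlapped between the groups, while both knockdown libraries of its subunit Ino80d were below both controls (log2 -0.58 and -0.61).

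Pairs of members were also set against each other within each library, where the library's scaling cancels. The 8 pairs, of partners or paralogues, were chosen after their values were seen, so they are a description with no test. Per 100 coding reads of Smarca4, Smarcc1 had 117 and 97.6 reads in the controls and 60.1 and 46.0 in the knockdown libraries. Smarcc2 had 75.6 and 63.6 against 36.9 and 25.7. The scaffold reads per ATPase read were thus lower in both knockdown libraries, whereas Smarcb1 had 21.0 and 14.5 against 26.6 and 15.9, which overlapped. Per 100 reads of Kdm4a, Kdm4b had 116 and 124 in the controls and 33.9 and 15.1 in the knockdown libraries, with an exact 95% counting interval of 7.74 to 27.2 for the last value. Kdm4c had 46 and 48 against 18.9 and 19.8 per 100 reads of Kdm4a. Per 100 reads of Kmt2b, Kmt2d had 375 and 357 against 104 and 57.1. Kat6b had 31.3 and 44.8 against 8.64 and 10.2 per 100 reads of Kat6a, and Hdac5 had 30.5 and 61.7 against 7.22 and 12.1 per 100 reads of Hdac1. Groups overlapped in 1 pair of the 8, that of Smarcb1.

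**Figure D3:**
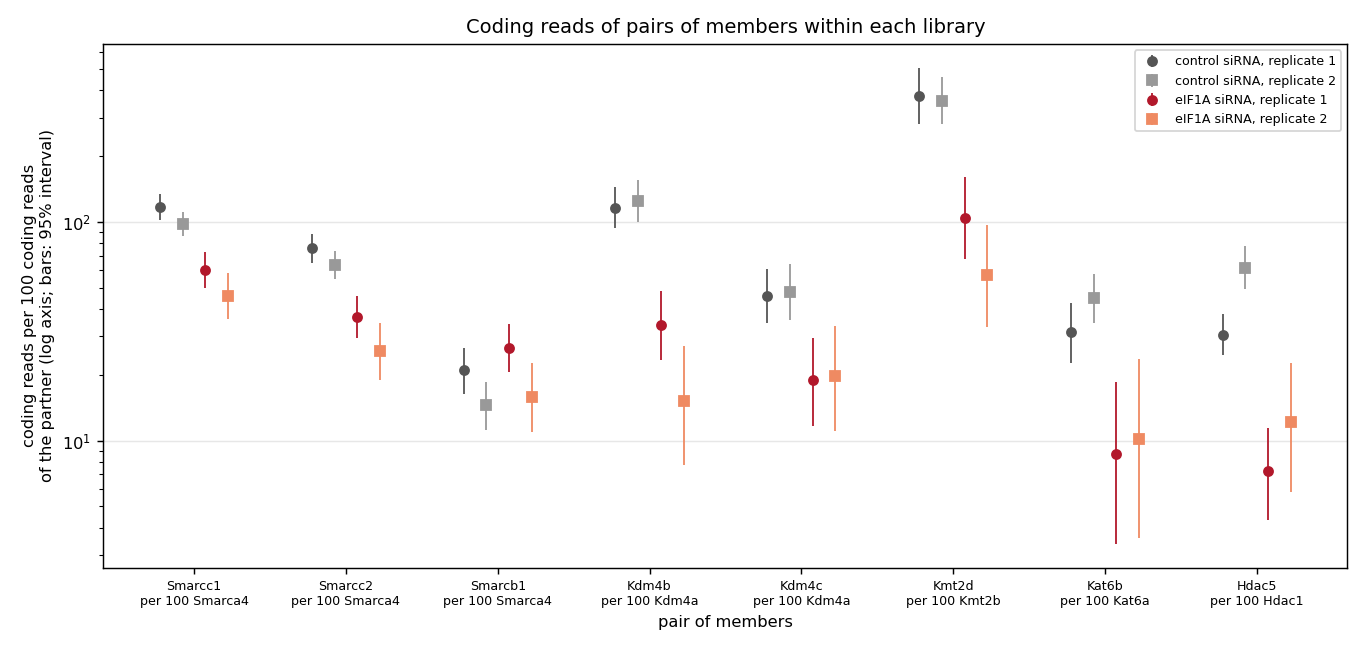
Coding reads of 8 chromatin genes per 100 coding reads of a partner or paralogue in the same library (log axis), 1 point per library with the exact 95% counting interval, for control siRNA (dark and light grey) and eIF1A siRNA (red and orange). Kdm4b per 100 Kdm4a reads lies at 116 and 124 in the controls and at 33.9 and 15.1 in the knockdown libraries, and the groups overlap for Smarcb1 per 100 Smarca4.

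On the leaders the picture differed. Of 16 members with a mean of at least 10 normalized 5' UTR reads, 8 rose, 1 fell and 7 did not pass (limma, adjusted over all 2101 leaders tested). Leaders rose throughout the table, where 44% rose and 2.81% fell, so the members' count upwards is near that of all genes. Their median log2 change was 1.43, beside 1.09 for all leaders tested. The filter takes the mean over all 4 libraries, so 9 of the 16, and 6 of the 8 that rose, passed through their knockdown values with a control mean below 10. Among all tested leaders 33.5% had a control mean below 10, and the counts over these 16 are a description of the leaders that passed. Without the filter, limma called 10 of 55 members higher and 2 lower, beside 25.6% and 1.27% of all 4878 genes. The members' median log2 change was then 0.36, below the 0.67 of all genes, so the order of the medians reversed. A leader at 1 read in every library has values of 0.717 and 0.864 in the controls and 1.02 and 1.6 in the knockdown libraries. Its value thus rises through the library factors alone, and 9 members have such leaders. The reversed order therefore does not show a smaller rise of the members' leaders. The added calls, Dnmt1 and Kdm3b higher and Kat6b lower, rest on few reads, as in Kdm3b with 1 read in each control and 2 in each knockdown library. Both knockdown libraries were above both controls in 12 of the 16 and below both in 1, beside 67.4% and 7.19% of all leaders. The edgeR count test called 10 members higher and 1 lower, beside 947 and 48 of all 2101 leaders. With quantile normalization, which takes out a shift shared by most leaders, limma called 5 higher and 2 lower, beside 452 and 375 of all leaders. Without control replicate 1 or 2, limma called 1 (Smarcb1) and 4 (Smarca4, Smarcb1, Smarcd2 and Chd4) of the 16, and all 9 changes kept their sign. The sign could not change with 1 library left out, since in each of the 9 both knockdown libraries lay on 1 side of both controls. For leaders and for the ratio below, limma gave each gene the variance of the mean-variance trend and none of its own, so small p-values there depend on variance borrowed from other genes.

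Start sites in the RefSeq table (GRCm38.p6) show where an upstream ATG could meet a scanning ribosome in these leaders. The first 50 transcribed bases were searched for ATG on the transcribed strand. An entry was found for 12 of the 16 members, and 4 of them (33.3%) held an ATG at 1 or more start sites, beside 48.8% of all genes in that table. The 30 bases around the first ATG (in capitals, 5' to 3') are shown for these 4, since they include leaders that rose in the knockdown libraries. The Smarcd2 and Setd5 start sites lie inside the outer bounds of their genes. The main start codon was not located here, so a match is a description and not a site of initiation.
Smarcb1 (chr10:75921582-75921611, minus strand): agcttctccacgcATGcgcaccgagggcgg
Smarcd2 (chr11:106267583-106267612, minus strand): ttgagagagagagagagagATGgagggtat
Chd4 (chr6:125095981-125096010, plus strand, 1 of 2 start sites): gtggccaATGgttgcctgagcgacgagggg
Setd5 (chr6:113104935-113104964, plus strand): gattcctcATGtccgtaacatgttggctga

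Of 9 SWI/SNF leaders, 4 passed the filter, and these 4 rose, beside 44% of all leaders tested. Of them, Brd7, Smarca4 and Smarcd2 reached the filter only through their knockdown values. Without the filter, 4 of 9 were called higher and 0 lower, beside 25.6% and 1.27% of all genes. Smarcb1 (chromosome 10, 75896769 to 75921614) had 14.3 and 14.7 normalized 5' UTR reads in the controls and 70.2 and 102 in the knockdown libraries. The replicates of each group were close, and the log2 change was 2.47 ± 0.50 (SE, limma adjusted p = 1.6e-05), a call kept in all 16 alternatives. Smarca4 rose from 7.17 and 10.4 to 29.5 and 57.5 (log2 2.13, limma adjusted p = 0.00052), and Smarcd2 (chromosome 11, 106263171 to 106272998) from 8.60 and 7.78 to 38.6 and 46.3 (log2 2.24, limma adjusted p = 0.00028). Brd7 (chromosome 8, 88329894 to 88362252) had 2.15 and 2.59 in the controls, which are 3 reads each, and 18.3 and 19.2 in the knockdown libraries (limma adjusted p = 0.00189). The groups overlapped in none of the 4, and both knockdown libraries were above both controls in 67.4% of all leaders tested. None of these 4 genes passed on coding reads, as given above. The other 5 SWI/SNF members had leaders below the filter, among them the scaffolds Smarcc1 and Smarcc2 with 1 to 3 reads per library.

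Other leaders that rose belonged to Chd4, Kat7, Kdm1a and Kdm6a. Chd4 had 4.30 and 15.6 normalized 5' UTR reads in the controls and 32.5 and 60.7 in the knockdown libraries (log2 2.28, limma adjusted p = 0.000199). Kat7 (chromosome 11, 95271853 to 95310246) had 12.9 and 21.6 against 42.7 and 67.0 (log2 1.62, limma adjusted p = 0.00565). In both, the lower knockdown library lay well above the higher control. Kdm1a (chromosome 4, 136550533 to 136602787) rose from 2.87 and 7.78 to 13.2 and 31.9 (log2 1.89, limma adjusted p = 0.00891). Kdm6a rose from 9.31 and 8.64 to 16.3 and 39.9 (log2 1.41, limma adjusted p = 0.0285). The Kdm6a call was lost in 6 of 15 alternatives that gave a value with log2 changes from 0.46 to 2.04, and the Kdm1a call in 4 of 15. Without knockdown replicate 2, both calls were lost. Among the 16 members with a tested leader, Kdm1a and Kdm6a are the 2 that fell on the coding sequence and rose on the leader. Both reached the filter only through their knockdown values. Kdm3b, which also fell on the coding sequence, was called higher on its leader only without the filter, on 1 or 2 reads per library.

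**Figure D4:**
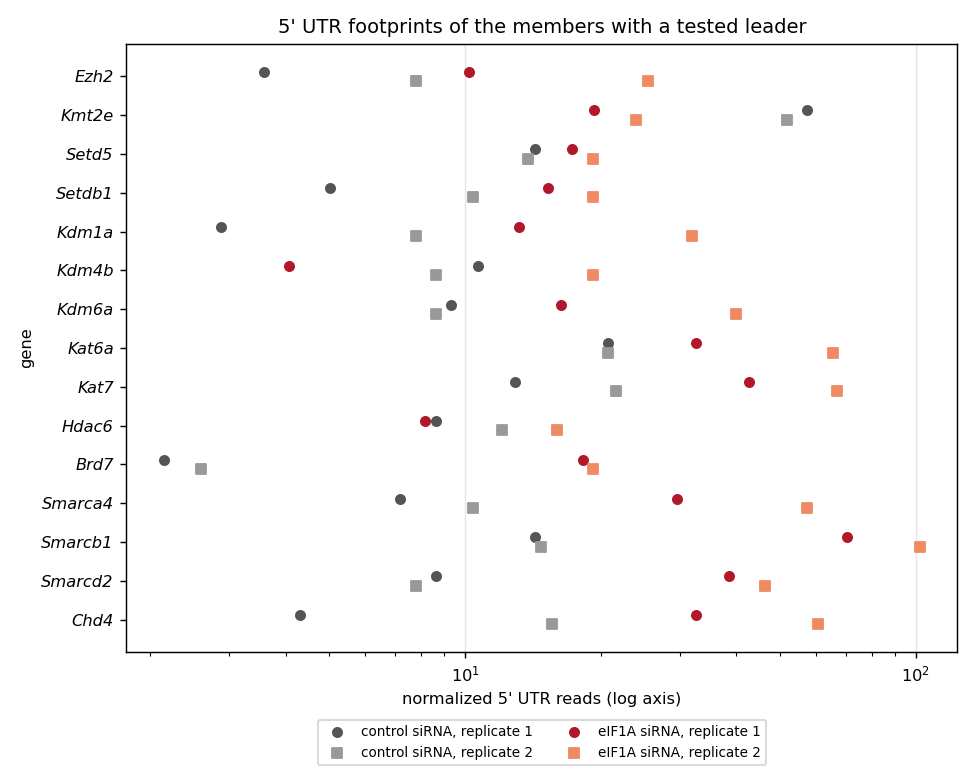
Normalized 5' UTR reads (log axis) of 15 chromatin genes with a tested leader, 1 point per library, for control siRNA (dark and light grey) and eIF1A siRNA (red and orange). Smarcb1 lies at 14.3 and 14.7 in the controls and at 70.2 and 102 in the knockdown libraries, while Kmt2e lies at 57.3 and 51.9 in the controls and at 19.3 and 23.9 in the knockdown libraries.

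Kmt2e was the 1 member among the 16 whose leader fell. It is a SET and PHD domain protein that binds methylated histone H3 (chromosome 5, 23433036 to 23504235). Its leader had 57.3 and 51.9 normalized reads in the controls and 19.3 and 23.9 in the knockdown libraries. The groups did not overlap, and the log2 change was -1.30 ± 0.50 (SE, limma adjusted p = 0.0246). The call was lost in 5 of 16 alternatives, TMM scaling and DESeq2 among them, with log2 changes from -2.28 to -1.14. Its coding reads, 70.2 and 113 against 68.1 and 49.5, did not pass (log2 -0.61, limma adjusted p = 0.175). The leader held 44.9% and 31.4% of the reads of Kmt2e in the controls and 22.1% and 32.6% in the knockdown libraries.

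Among the 7 leaders that did not pass, the log2 change was highest in Ezh2, at 1.44. Its leader had 3.58 and 7.78 in the controls and 10.2 and 25.5 in the knockdown libraries (limma adjusted p = 0.0545). Kat6a had 20.8 and 20.7 against 32.5 and 65.4 (limma adjusted p = 0.0575), and Setdb1, which methylates lysine 9 of histone H3, had 5.02 and 10.4 against 15.3 and 19.2 (limma adjusted p = 0.112). In these 3 and in Setd5, both knockdown libraries were above both controls, whereas Hdac6 and Kdm4b overlapped. The remaining 39 members had a mean below 10 normalized 5' UTR reads. In 9 of them, Ash2l, Brd9, Chd2, Chd3, Ehmt2, Hdac1, Kat5, Kmt2b and Setd1a, the leader was at 1 read in all 4 libraries, the lowest value the table holds.

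Leader reads were next divided by the coding reads of the same gene. A change shared by both regions cancels in this ratio, though not fully at low values, where the 1 added before taking log2 weighs more. This ratio was higher for 9 of the 16 members and lower for 0 (limma, adjusted over 1907 genes). Among all genes tested, 19.4% were higher and 0.0524% lower. The members' median log2 change of the ratio was 2.19, beside 1.23 for all genes. Of the 9 higher members, 8 had a control leader mean below 10 and so passed the filter through their knockdown values. Both knockdown ratios were above both control ratios in 14 members and below in 0, beside 64% and 1.52% of all genes. The edgeR and DESeq2 tests of the difference between regions called 8 and 11 of the members, all higher, beside 341 and 348 of all 1907 genes. Without control replicate 1 or 2, limma called 0 of the 16, with 2 and 3 at an unadjusted p under 0.05, and 3 and 0 of all genes. With quantile normalization it called 0 members, with 8 at an unadjusted p under 0.05. Without knockdown replicate 1 it called 14 members, while calls over all genes rose from 19.5% to 61.6%. Without knockdown replicate 2 it called 7 members and 14.5% of all genes, and the calls of Kdm4b, Smarca4 and Smarcb1 were lost. All 9 changes kept their sign in these fits, which was fixed in advance where 1 library was left out. In each of the 9, both knockdown ratios lay above both control ratios.

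Chd4 had 0.00657 and 0.0152 leader reads per coding read in the controls and 0.0699 and 0.104 in the knockdown libraries (log2 2.93, limma adjusted p = 0.00144). Kdm6a had 0.104 and 0.0645 against 0.5 and 1 (log2 2.99, limma adjusted p = 0.0039), so that in knockdown replicate 2 its leader and its coding sequence held equal reads. In Kdm1a (0.0154 and 0.0345 against 0.125 and 0.317) and Ezh2 (0.0236 and 0.0514 against 0.185 and 0.400) the ratio also rose, by 2.88 and 2.78 on the log2 scale (limma adjusted p = 0.00307 and 0.0050). For Smarcb1 the ratio was 0.233 and 0.236 in the controls and 0.863 and 1.78 in the knockdown libraries, and its leader held 64.0% of its reads in knockdown replicate 2. Smarcd2 had 0.124 and 0.122 against 0.585 and 1.12. Both exceeded 1 leader read per coding read in knockdown replicate 2 and not in the other libraries. Smarca4 and Brd7 rose by 2.23 and 2.36 on the log2 scale. Kdm4b had 0.0802 and 0.0543 against 0.0930 and 0.923, and without knockdown replicate 2 its log2 change of 2.16 fell to 0.65 and its call was lost.

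**Figure D5:**
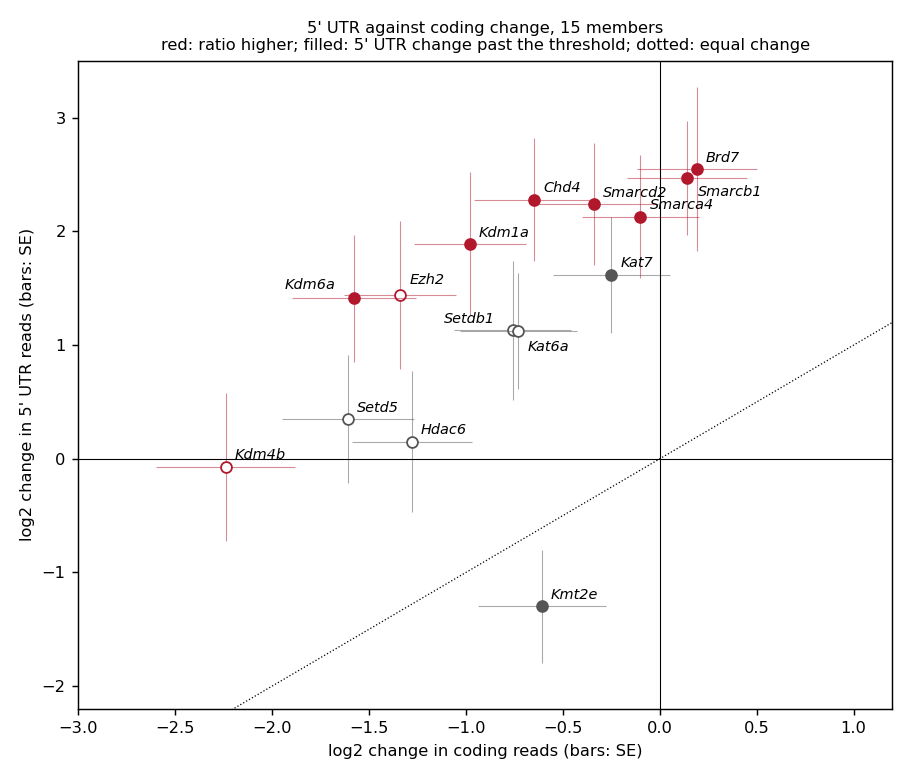
Log2 change in 5' UTR reads against that in coding reads (both knockdown over control) for 15 chromatin genes with a tested leader, with bars for the SE, red for genes whose ratio was higher, filled points for leaders past the threshold, and a dotted line at equal change. Smarcb1 lies at 0.14 on the coding axis and 2.47 on the leader axis, and Kmt2e is the 1 gene below the dotted line.

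The members with a tested leader were sorted by which measures passed the threshold, and the share of all genes in each pattern was not counted. The leader and the ratio rose without a called coding change in 5 members, Brd7, Smarca4, Smarcb1, Smarcd2 and Chd4. All of these but Smarcb1 reached the filter only through their knockdown values. Coding reads fell while leader and ratio rose in Kdm1a and Kdm6a. In Ezh2 and Kdm4b coding reads fell and the ratio rose without a called leader change, and in Setd5 and Hdac6 coding reads alone fell. Kat7 rose and Kmt2e fell on the leader alone, and Setdb1 and Kat6a passed in no measure. The patterns split similar changes, since the ratios of Kat7 and Setd5 changed by 1.87 and 1.96 on the log2 scale. Neither ratio passed (limma adjusted p = 0.0705 and 0.0607).

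Other chromatin genes, which do not match the symbol rule, were tested from a list of partners and further modifiers. Of 80, 13 (16.2%) fell, 3 rose and 64 did not pass on coding reads, with a median log2 change of -0.34. The share that fell is near the 18.7% of all genes, and whether it differs from that of the members was not tested. Pbrm1, a PBAF subunit like Arid2, fell from 260 and 385 to 119 and 117 (log2 -1.42, limma adjusted p = 0.00255). Of the NuRD partners of Chd3 and Chd4, Mta1 fell from 76.0 and 101 to 30.5 and 27.1 (log2 -1.57, limma adjusted p = 0.00232), and Mta3 fell by 1.10 on the log2 scale. Mta2 had 120 and 104 against 144 and 136 and did not pass (limma adjusted p = 0.421). The further NuRD subunits Mbd2, Mbd3, Gatad2a, Gatad2b, Rbbp4 and Rbbp7 did not pass either, with log2 changes from -0.62 in Gatad2b to 0.66 in Mbd2. Uhrf1, the partner that guides Dnmt1 to newly replicated DNA, fell from 487 and 417 to 230 and 168 (log2 -1.20, limma adjusted p = 0.00675), while Dnmt1 itself overlapped between groups. Ruvbl1, an ATPase shared by INO80 and NuA4, rose from 43.7 and 26.8 to 98.7 and 71.8 (log2 1.27, limma adjusted p = 0.0117). Eed, the Polycomb repressive complex 2 partner of Ezh2, had 45.1 and 36.3 against 59.0 and 33.5 (log2 0.13). Of 41 leaders tested in that list, 17 (41.5%) rose and 1 fell, a share upwards near the 44% of all leaders.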

How the data were processed

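The deposited signal is, per the file headers, a normalized read number for the 5' UTR and the coding sequence of each gene and library. Per the submitters' processing notes, cutadapt, Bowtie, TopHat2, HTSeq and DESeq2 were used with build mm10, without versions or order. Divided by what 1 read is worth in its library, 100% of the values came out whole (tolerance 0.001 reads), and these reads entered the count tests, where edgeR called 1517 genes in coding reads. The lowest value was 1 read, so 1 may stand for 0. Every gene had at least 26 reads in some library, so totals are those of the listed genes.

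Values were tested as log2(value + 1) with limma 3.58.1 in R 4.3.3 (trend, Benjamini-Hochberg over all genes with a mean of at least 10). edgeR 4.0.16 and DESeq2 1.42.0 on whole reads, other pseudocounts, filters and scalings, a replicate block and leaving out each library were alternatives, 16 in all. DESeq2 used its own size factors throughout. The procedure was tested on simulated data. An exact permutation test of 2 libraries against 2 gives no p below 0.333, so single values have none. Members and lists were chosen with earlier results of these data known. Genes named were members past the threshold in a measure, the 2 with the most coding reads per role group, and a fixed set of paralogues. Other members and partner genes named, and the pairs, were chosen after their values were seen. All 55 symbols matched RefSeq (GRCm38.p6), which gives the coordinates. The values of 1 member, which stays in the counts and medians, are not reported here.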

Additional observations from a re-analysis of the deposited data

How the results depend on the processing

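All 21 coding, 9 leader and 9 ratio changes called among the members kept their sign under each of the 16 alternatives that gave a value. With 1 library left out the sign could not change, as given above. Other filters, the fit without the mean-variance trend and the replicate block left the log2 changes themselves as they were. The number of members called in coding reads was 21, and it was 13 with DESeq2 and 0 to 26 with 1 library left out. Leader calls, 9 in the main test, were 1 to 11 with 1 library left out. Ratio calls, also 9, were 14 of 55 tested without a filter on low values, all higher, beside 12.6% of all genes. Of these 14, 7 were shared with the 9, and Kdm4b and Smarcb1 were lost. The added calls include Ehmt2, whose leader was at 1 read in every library, so no change of its leader was measured. Its tested ratio moved with its coding reads and with the library factors. Those factors put its leader at 0.717 and 0.864 in the controls and at 1.02 and 1.6 in the knockdown libraries. Ratio calls were 4 with a mean of at least 20, where 7 members were tested, and 14 with a replicate block. With quantile normalization they were 0 (0 of 1907 genes higher and 1 lower). Their number also changed with each library left out, as given above. Replicate numbers in the titles name no shared culture or day. The differences between replicates 1 and 2 of the control and knockdown groups correlated across genes at 0.261 for coding reads. For leaders the correlation was -0.061, so no shared replicate difference was seen there. With the replicate block, limma called 31 members in coding reads, 11 on leaders and 14 in the ratio, and calls over all genes rose from 29.3%, 46.8% and 19.5% to 41.6%, 59.9% and 44.6%. The cause of these shifts was not tested. For all genes, the split of coding calls moved from 488 higher and 864 lower to 784 and 771 with TMM factors, and that of leader calls from 924 and 59 to 452 and 375 with quantile normalization. Few reads limit the leaders, where a change from 3 reads, as in Brd7, rests on counting.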
